A study of Gallus gallus with 4 samples.

Results

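Immune nuclei of the embryonic day 13 (E13) chicken lung were nuclei with at least 500 detected genes, at least 4 unique molecular identifiers (UMIs, each counting 1 captured RNA molecule) summed over PTPRC, CD83, IL1R2, IFI30 and CD80, and at most 2 UMIs summed over EPCAM and CDH1. The rule found 488 of 7486 nuclei with at least 500 genes, a share of 6.52% (exact Clopper-Pearson 95% interval 5.97 to 7.10). They were set against 5971 comparison nuclei (79.8%) that had 0 UMIs of those 5 genes. A further 969 nuclei had 1 to 3 marker UMIs, and 58 had at least 4 but more than 2 epithelial UMIs; both were left out. Because the members were chosen on RNA, every RNA difference below is a description of the chosen nuclei. The peak counts of the same nuclei took no part in the choice.

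The E13 nuclei came from wild-type chicken lungs that were dissociated, stained and sorted by flow cytometry, after which the sorted populations were recombined in about equal amounts and run as a single-nucleus multiome, an assay that reads nuclear RNA and open chromatin from the same nucleus. The share of immune nuclei is therefore that of the recombined mixture. The number of embryos is not given in the sources used here. The other libraries of the study, wild-type E20 epithelial cells and wild-type E20 lung cells depleted of immune cells, shared 0 barcodes with the E13 library. E13 is 1 library without a replicate, so no test was possible, and all intervals cover counting error only.

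Macrophages are among the first blood-derived cells to settle in embryonic organs, where they clear dying cells and sense microbial products. PTPRC encodes CD45, the phosphatase carried by blood-derived cells other than mature red cells. CD83 and CD80 are surface molecules of antigen-presenting cells, IFI30 is a lysosomal thiol reductase of antigen processing, and IL1R2 is the decoy receptor that binds interleukin 1 without signalling.

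The immune nuclei had a median of 4619.5 UMIs, 1139 genes and 3395.5 peak counts, against 4161 UMIs, 1306 genes and 3318 peak counts in comparison nuclei. Summed, they held 2721254 UMIs and 2336020 peak counts, against 37197572 UMIs and 38166759 peak counts. A gene with 0 UMIs could therefore have reached up to 1.10 CPM (counts scaled to a sum of 1e6) in immune nuclei and 0.0807 CPM in comparison nuclei, the limit that 3 counts set. Mitochondrial transcripts took a median of 53.1% of UMIs in immune nuclei and 41.9% in comparison nuclei, a high share for nuclear RNA in both. The part of this difference in the results was not tested; with at most 40% mitochondrial UMIs, 67 immune nuclei remained and 232 of the 244 genes called higher below were called again. Scrublet, a caller that marks likely doublets, marked 44 of the 488 immune nuclei (9.02%) and 271 comparison nuclei (4.54%). Without the marked nuclei all 244 calls stayed.

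Each of the 5 rule genes was found in more than 50% of the members. In immune nuclei CD83 reached 1647 CPM and IFI30 1266 CPM, and a UMI of them was found in 94.3% and 94.5% of the nuclei. IL1R2 reached 451 CPM (52.7% of nuclei), PTPRC 419 CPM (71.1%) and CD80 379 CPM (68.4%). By number of rule genes with a UMI, which the choice itself shapes, 145 immune nuclei (29.7%) had UMIs of all 5 genes, 173 had 4 of them, 114 had 3, 44 had 2 and 12 had only 1. Nuclei can also be chosen on 4 of the genes alone, which leaves only members. The rule genes were chosen with earlier results of these data known. Ratios of the gene left out therefore describe how the 5 genes go together and are no check of the rule. PTPRC had 421 CPM in the 480 nuclei chosen on the other 4 genes and 3.22 CPM in nuclei with none of those 4, a 131-fold ratio. The ratio in the same scheme was 225-fold for CD83, 605-fold for IL1R2, 93.9-fold for IFI30 and 259-fold for CD80.

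**Figure D1:**
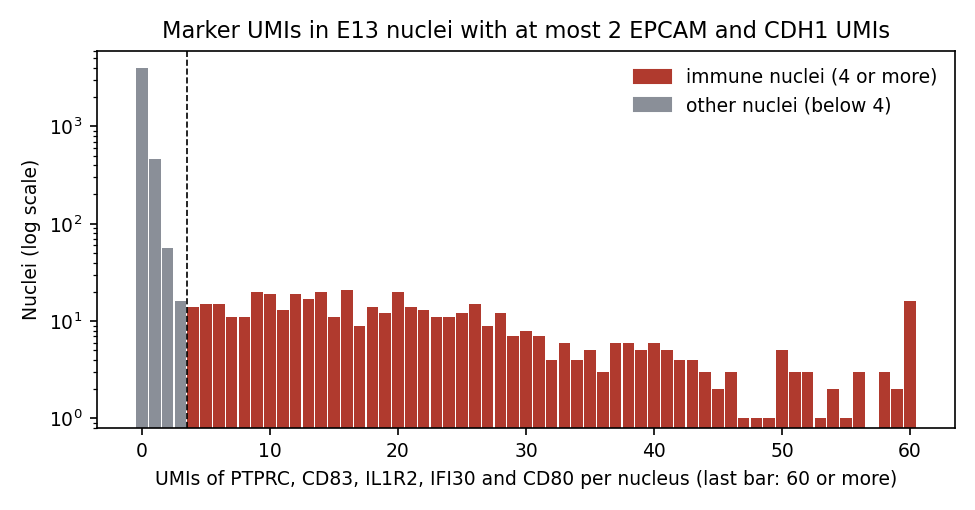
Number of nuclei (vertical axis, log scale) by the summed UMIs of PTPRC, CD83, IL1R2, IFI30 and CD80 (horizontal axis) among E13 nuclei with at least 500 genes and at most 2 EPCAM and CDH1 UMIs; red bars are the immune nuclei, grey bars the others, and the last bar pools 60 or more. Immune nuclei spread from 4 to 95 UMIs with a median of 20, while 4032 nuclei have 0 UMIs and 16 have 3.

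There were 14 nuclei with exactly 4 marker UMIs and 16 with exactly 3. SPI1 stood at 188 CPM (14 UMIs) in the nuclei with 4 and 83.6 CPM (5 UMIs) in those with 3, CSF1R at 201 and 201 CPM, and STAB1 at 737 and 602 CPM. SFTPC, a surfactant gene of lung epithelium, stood at 496 and 602 CPM in the same nuclei.

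Of 2599 genes with at least 50 CPM on either side, 244 were at least 4-fold higher in immune nuclei (9.39%) and 282 were at least 4-fold lower (10.9%), with a median log2 ratio of -0.45. Under median-of-ratios scaling, which sets the middle gene ratio to 1, 294 were higher and 157 lower. Mitochondrial, ribosomal protein, haemoglobin and rule genes were not counted, and log2 ratios are of CPM + 1, which understates the ratio of low genes. A gene that passed the minimum only through immune nuclei was more likely to be called higher than other tested genes. Counts of list genes called high below are therefore descriptions, and 9.39% is not a like baseline for them. Of the 244 higher genes 218 have a symbol of their own, and only these were ranked. Among those with at least 100 CPM in immune nuclei the 20 with the highest ratios were led by TRPM1, a cation channel known from retina and melanocytes in mammals. TRPM1 (ENSGALG00000003849, chromosome 10, listed start-site interval 6125779 to 6135038) had 764 CPM (exact Poisson interval 731 to 797) in immune nuclei and 0.914 CPM (0.633 to 1.28) in comparison nuclei, a log2 ratio of 8.64. The gene model behind this row could not be checked here, so transcripts of another gene counted under TRPM1 cannot be told apart from its own. The unnamed gene ENSGALG00000053860 would come next, at 665 against 1.24 CPM, a log2 ratio of 8.22. After each nucleus was thinned to 1000 UMIs, 27.3% of immune and 0.0699% of epithelial nuclei had a TRPM1 UMI, against 49.4% and 0.350% before thinning, at median depths of 4619.5 and 8834 UMIs.

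Some transcription factors of myeloid cells were among the high genes. SPI1 (ENSGALG00000008127, chromosome 5, start site 23185094), which encodes PU.1, the factor that directs the macrophage lineage, had 214 CPM (197 to 232) in immune nuclei and 2.31 CPM (1.85 to 2.86) in comparison nuclei, a log2 ratio of 6.02. A SPI1 UMI was found in 58.8% of immune and 1.96% of epithelial nuclei, and in 19.1% and 0.210% after thinning. TFEC, a relative of MITF, had 153 CPM (138 to 168) in immune nuclei and 5 UMIs in all comparison nuclei (0.134 CPM). RUNX1, a factor of blood cell formation, had 305 against 11.9 CPM. FLI1, shared by blood and endothelium, had 56.2 against 10.4 CPM. Of 6 tested genes in the list of myeloid factors 4 were high, against 9.39% of all tested genes. Those 4 passed the minimum only through immune nuclei. BACH1, at 167 against 51.9 CPM, and NR4A3, at 794 against 805 CPM, were tested and not called. IKZF1 had 27.6 CPM in immune nuclei, below the 50 CPM minimum, and 0.323 CPM in comparison nuclei. Also below it were CEBPB, at 1.10 against 0.591 CPM, and IRF8, at 14.3 against 8.36 CPM.

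Signalling and receptor genes filled most of the other places among the 20. RASGEF1A, an exchange factor for Ras-family GTPases (ENSGALG00000002525, chromosome 6), had the most UMIs of the 20, at 1394 CPM (1349.8 to 1439) in immune nuclei, against 9.84 CPM (8.86 to 10.9) in comparison nuclei. RGS1, which damps G protein signalling, had 302 against 1.45 CPM, and GPR183, the receptor for oxysterols that guides immune cells, 315 against 4.27 CPM. GPR34, a lysophosphatidylserine receptor, had 150 against 1.26 CPM. STAB1, a scavenger receptor of macrophages and sinus-lining endothelium, had 1027 CPM in immune nuclei, 211.7 CPM in endothelial nuclei and 16.7 CPM in all comparison nuclei. STAB1 was also the most widespread of the 20, with a UMI in 94.9% of immune nuclei. The adaptors SLA, SAMSN1, LCP2 and FYB, which link immune receptors to the cytoskeleton or restrain them, had 141, 164, 122 and 148 CPM in immune nuclei and at most 1.24 CPM in comparison nuclei. The remaining genes of the 20 were DCLK3, HIVEP3, ARHGAP15 and INPP5D, together with the cytokine and Toll-like receptor genes given further on.

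**Figure D2:**
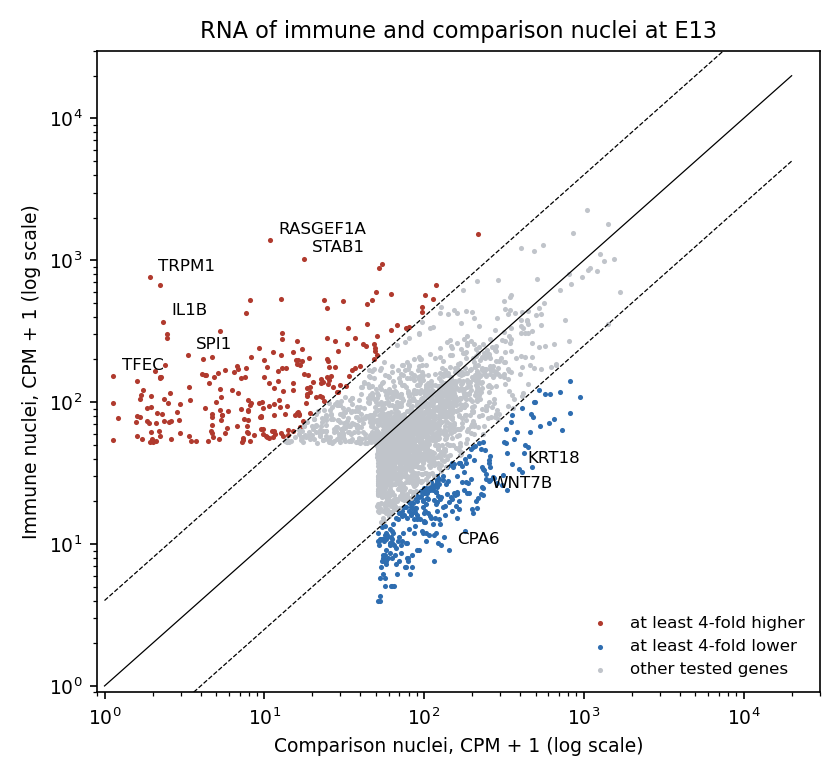
RNA level in immune nuclei (vertical axis, CPM + 1, log scale) against comparison nuclei (horizontal axis, CPM + 1, log scale), 1 point per gene for 2599 tested genes; red points are at least 4-fold higher, blue points at least 4-fold lower, the solid line marks equality and the dashed lines 4-fold. TRPM1, IL1B, TFEC and SPI1 lie far to the upper left, with 764, 369, 153 and 214 CPM in immune nuclei.

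Of the macrophage list 6 genes passed the minimum level and all 6 were high, against 9.39% of all tested genes. They passed only through their level in immune nuclei, so the count is a description and no test. No gene of the lymphocyte, heterophil, mast cell and thrombocyte lists passed the minimum. CSF1R, the receptor for the growth factors CSF1 and IL34 that macrophages depend on (ENSGALG00000005725, chromosome 13, start site 13980059), had 241 against 8.23 CPM. MERTK, a receptor for uptake of dying cells, had 147 against 6.10 CPM, and LGMN, the lysosomal protease legumain, 216 against 49.5 CPM. C1QB, a complement subunit, had 61.4 against 1.18 CPM, and MARCO, a scavenger receptor, 54.4 against 0.726 CPM. TIMD4, a phosphatidylserine receptor of resident macrophages, had 41.5 against 0.591 CPM, below the minimum. Also below it were the complement subunits C1QC, at 17.6 against 0.376 CPM, and C1QA, at 15.1 against 0.323 CPM. MRC1 was the exception in the list, with 5.14 CPM in immune nuclei, 83.4 CPM in endothelial nuclei and 9.87 CPM in all comparison nuclei. In all, 435 of 488 immune nuclei (89.1%) and 14.8% of comparison nuclei had at least 2 UMIs over the list. MERTK and LGMN also had UMIs in the mesenchymal nuclei.

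The T cell list summed to 12.9 CPM in immune nuclei and 8.76 CPM in comparison nuclei, with CD3E and LCK at 0 UMIs in immune nuclei and 5 immune nuclei with at least 2 UMIs of the list. The B cell list summed to 36.4 against 46.0 CPM, of which BCL11A made 35.3 and 45.6 CPM. PAX5 had 1 UMI and CD79B 0 UMIs in immune nuclei. The heterophil list, for the avian counterpart of the neutrophil, summed to 35.3 against 1.96 CPM, and MMP9 made 30.9 CPM of it in immune nuclei while CATHL2 and LYZ had 0 UMIs. The mast cell list summed to 12.9 against 7.39 CPM and the thrombocyte list to 12.1 against 1.96 CPM. In endothelial nuclei the mast cell list summed to 70.3 CPM. Without groups 1 and 5 of the immune nuclei, described below, it summed to 0.517 CPM. No gene of these 5 lists reached the minimum of 50 CPM. Of the dendritic cell list FLT3 and XCR1 had 0 UMIs and CCR7 1 UMI in immune nuclei, while CD74 and ZBTB46 were high.

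**Figure D3:**
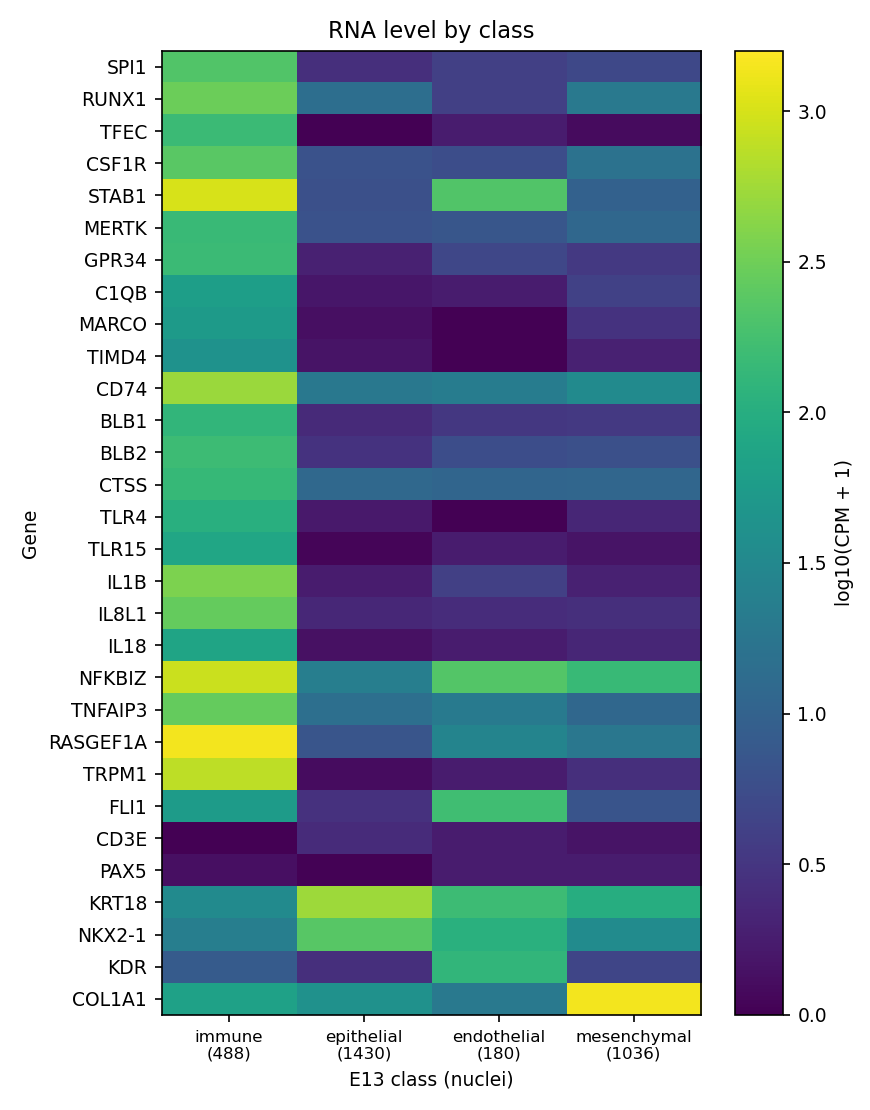
RNA level, as log10(CPM + 1), of named genes (rows) in 488 immune, 1430 epithelial, 180 endothelial and 1036 mesenchymal nuclei (columns); brighter colours are higher. The genes from SPI1 to TRPM1 are brightest in the immune column, and STAB1 and NFKBIZ are also visible in other columns. FLI1 is brightest in the endothelial column, CD3E and PAX5 are dark in all, and KRT18, NKX2-1, KDR and COL1A1 are brightest in another class. KDR and COL1A1 are among the genes that define the endothelial and mesenchymal classes.

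Of the antigen presentation list 5 genes other than the rule gene IFI30 passed the minimum, and all 5 were high, against 9.39% of all tested genes. All 5 passed only through immune nuclei, so this count is no test. CD74, the invariant chain that escorts class II molecules, had 524 against 22.6 CPM. The class II beta chains BLB1 and BLB2, near-identical genes between which reads may be split, had 126 against 2.39 CPM and 155 against 3.31 CPM. CTSS, the protease that cuts the invariant chain, had 140 against 11.2 CPM. The fifth was LGMN. The class II genes DMA and DMB2 stayed under the minimum, at 0.735 against 0.0538 CPM and 12.1 against 2.02 CPM. The class I genes BF1 and BF2 had 8.45 against 4.52 CPM and 5.88 against 4.70 CPM, and B2M 48.1 against 22.1 CPM, all under the minimum. The costimulatory ligand ICOSLG had 87.1 against 4.25 CPM, while CD86 and CD40 had 9.55 and 14.7 CPM in immune nuclei and under 1 CPM in comparison nuclei.

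The cytokine genes IL1B and IL18 and most tested genes of NF-kB signalling were high as well. IL1B (ENSGALG00000029940, chromosome 22, start site 5173295) had 369 CPM (346 to 392) in immune nuclei and 1.32 CPM (0.9745 to 1.74) in comparison nuclei. IL18, a related cytokine, had 72.0 against 0.565 CPM. Of 3 tested genes of the interleukin 1 family these 2 were high, against 9.39% of all tested genes. Both passed the minimum only through immune nuclei, so their calls are no test. The third, the receptor subunit IL1RAP, had 62.5 against 73.9 CPM. Under the minimum, the signalling receptor IL1R1 had 6.98 against 14.2 CPM, IL18R1 had 41.9 against 0.807 CPM, and IL1RL1 had 0 UMIs in immune nuclei. IL8L1 and IL8, neighbouring chemokine genes related to mammalian CXCL8, had 280 against 1.48 CPM and 181 against 1.40 CPM; they are close copies, so their split is uncertain. Of 7 tested NF-kB genes 6 were high, against 9.39% of all tested genes. TNFAIP3, BIRC3, REL and TRAF3 passed the minimum only through immune nuclei. Inhibitors and regulators led this list, with NFKBIZ at 879 against 51.1 CPM, NFKBIA at 582 against 60.7 CPM, TNFAIP3 at 276 against 11.9 CPM and BIRC3 at 530 against 11.7 CPM. The subunit gene REL had 194 against 23.9 CPM and the adaptor TRAF3 108 against 22.1 CPM, while NFKB1 had 332 against 108 CPM, a log2 ratio of 1.61 that missed the 4-fold call. IL10 and CSF2 had 0 UMIs in immune nuclei, and IL6 had 8.08 CPM.

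Immediate-early and heat-shock genes, which tissue dissociation can switch on, were listed after values had been seen. The list reached 8519 CPM in immune nuclei and 6698 CPM in comparison nuclei. Of its 12 tested genes 0 were high, against 9.39% of all tested genes. FOS had 758 against 971 CPM and ATF3 267 against 804 CPM, while HSP90AA1 had 2269.5 against 1052 CPM. HSPH1, a heat-shock gene outside the list that was named after its value had been seen, was high, at 284 against 35.9 CPM, with 115 CPM in endothelial and 109.7 CPM in mesenchymal nuclei. Their part in the cytokine and NF-kB levels was not tested.

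Few of the listed genes for receptors that sense microbes passed the minimum. TLR4, the receptor for bacterial lipopolysaccharide (ENSGALG00000007001, chromosome 17, start site 3938812), had 104 against 0.672 CPM. TLR15, a receptor found in birds and reptiles, had 76.8 against 0.215 CPM. TLR2B had 47.4 against 1.45 CPM and its near copy TLR2A 5.51 against 0.296 CPM, both under the minimum. TLR7, also under it, had 15.4 against 0.323 CPM. TLR3 and CD14 had 0 UMIs in immune nuclei, and TLR5 had 2.94 against 4.36 CPM. Of 14 listed genes that were measured only TLR4, TLR15 and MARCO passed the minimum, and all 3 were high, against 9.39% of all tested genes. They passed only through immune nuclei, with under 1 CPM in comparison nuclei, so this count is no test. TLR1B, outside the list and named after its value had been seen, was high too, at 52.5 against 2.72 CPM.

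Among genes of immune receptor signalling and the cytoskeleton 8 of 10 tested were high, against 9.39% of all tested genes. DOCK2, an exchange factor for Rac in blood cells, had 151 against 3.82 CPM, and LCP1, an actin-bundling protein of leukocytes, 159 against 4.17 CPM. INPP5D, the phosphatase SHIP1, had 116 against 1.59 CPM. DOCK2, LCP1 and INPP5D passed the minimum only through immune nuclei. LYN and PTPN6 were the 2 tested genes that missed the call, at 182 against 79.3 CPM and 66.5 against 18.8 CPM. The leukocyte integrin chain ITGB2 had 72.8 against 0.833 CPM and ITGAV 330 against 76.5 CPM, while ITGB1 had 160 against 217 CPM. Of 8 tested lysosomal genes 4 were high, against 9.39% of all tested genes. Among the 4 were CTSB at 98.9 against 8.66 CPM, LAPTM5 at 115 against 5.86 CPM and PSAP at 107 against 20.2 CPM. CTSB, LAPTM5 and PSAP passed the minimum only through immune nuclei. CTSD, at 388 against 204 CPM, was not called. Of 5 tested cell cycle genes 0 were high, against 9.39% of all tested genes. TOP2A had 72.0 against 92.6 CPM, and the list summed to 441 against 475 CPM.

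Among epithelial, endothelial and mesenchymal nuclei, the genes lowest in immune nuclei had their highest level in epithelial nuclei. They were not all confined to that class. EGF had 120 CPM in epithelial and 114 CPM in all comparison nuclei, and DNAH5 153 and 133 CPM. The 10 lowest were CPA6, EGF, UNC79, PLEKHA7, LMO7, MMEL1, DNAH5, KRT18, MAP7 and WNT7B, with log2 ratios from -3.98 to -3.40. KRT18, an epithelial keratin, had 32.7 CPM in immune nuclei, 532 CPM in epithelial nuclei and 393 CPM in all comparison nuclei. WNT7B, a Wnt ligand of lung epithelium, had 21.3 CPM in immune nuclei and 234 CPM in comparison nuclei. SFTPC still had 353 CPM in immune nuclei, against 1587 CPM in epithelial and 553 CPM in mesenchymal nuclei. After thinning, an SFTPC UMI was found in 31.4% of immune, 67.4% of epithelial, 42.8% of endothelial and 40.6% of mesenchymal nuclei, and before it in 75.2%, 96.4%, 82.2% and 79.4%. The share in immune nuclei lay below that in mesenchymal nuclei and is not read as expression; the source of these UMIs was not tested. A COL1A1 UMI was found in 4.51% of immune nuclei and 56.7% of mesenchymal nuclei after thinning, and in 2.66% of epithelial nuclei. COL1A1 is among the genes that define mesenchymal nuclei, so its share there is shaped by that choice. EPCAM and CDH1 were capped by the rule in immune nuclei, and their low values are no result. Comparison nuclei had no such cap and held 1430 epithelial nuclei, so low values of other epithelial genes follow in part from the choice.

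Part of the high genes were shared with other classes of the lung. Against each class singly, 238 of the 244 high genes were at least 4-fold above epithelial nuclei, 189 above endothelial nuclei and 191 above mesenchymal nuclei, and 153 (62.7%) were so above all 3. These classes held 1430, 180 and 1036 of the 5971 comparison nuclei, so many comparison nuclei fell in none of them. FLI1 had 56.2 CPM in immune and 163 CPM in endothelial nuclei, CD36, a fatty acid receptor, 80.5 and 167 CPM, and PLXND1, a semaphorin receptor, 201 and 296 CPM. CALCRL, HHEX, KLF2 and ELMO1 were within 2-fold of their endothelial level. Toward mesenchyme the closest were TNIP2, at 56.6 CPM in immune and 52.8 CPM in mesenchymal nuclei, FRMPD4, at 173 and 195 CPM, RBM24, at 58.4 and 47.7 CPM, and DOCK10, at 137 and 111 CPM.

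Open chromatin of the same nuclei, which the rule did not use, also set them apart. Of 17966 peaks with at least 20 CPM on either side, 1815 (10.1%) were at least 4-fold higher in immune nuclei and 1936 (10.8%) at least 4-fold lower, with a median log2 ratio of 0.41. Under median-of-ratios scaling 1348 were higher and 5215 lower, with a median of -0.30. The higher peaks held 6.45% of all peak counts of immune nuclei and 0.651% of those of comparison nuclei. Peaks that differed in either direction were mainly distal: 188 of the higher peaks (10.4%, exact interval 8.99 to 11.9) and 6.97% of the lower peaks were annotated as promoters, against 48.9% of all tested peaks. Of the higher peaks 890 (49.0%) were at least 4-fold above epithelial, endothelial and mesenchymal nuclei alike. Only immune nuclei were capped on EPCAM and CDH1, so the lower peaks follow in part from the choice of nuclei. Against comparison nuclei with at most 2 UMIs of these genes, 1579 peaks were higher and 677 lower.

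Coordinates are those of the deposited peaks, on the galGal6 build named in the submitters' processing notes. The highest ratio belonged to a peak 2275 bases from the annotated start of ANKRD13A (chr15:7178851-7179734), with 63.8 CPM (54.0 to 74.9) in immune nuclei and 0.288 CPM (0.144 to 0.516) in comparison nuclei. A peak at -8711 bases from the start of CD83 (chr2:60683320-60684209) had 71.1 CPM (60.7 to 82.7) in immune nuclei and 0.603 CPM (0.382 to 0.904) in comparison nuclei. A promoter peak annotated to CCL4, a chemokine gene whose symbol 2 RNA entries carry and whose RNA is therefore not given, had 74.1 against 0.707 CPM (chr19:570043-570781). The other 7 of the 10 highest were distal, with 59.9 to 73.6 CPM in immune nuclei. All 10 had at most 1.62 CPM in endothelial nuclei and at most 1.99 CPM in mesenchymal nuclei. The only peak annotated to CX3CR1, a chemokine receptor of mononuclear phagocytes, had 62.5 against 0.891 CPM, although CX3CR1 RNA reached only 12.1 CPM in immune nuclei and 0.349 CPM in comparison nuclei.

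Promoters of some high genes were at least 4-fold more accessible in immune than in comparison nuclei, and examples follow. Of 175 tested pairs of a promoter peak and a high gene, 26 (14.9%) were called higher, against 1.95% of the pairs of all genes. The TLR4 promoter peak (chr17:3938431-3939290) had 77.5 CPM (66.6 to 89.6) against 1.41 CPM, and the NFKBIZ promoter peak (chr1:86520786-86521685) 88.6 CPM (77.0 to 102) against 2.28 CPM. The RUNX1 promoter peak had 48.4 against 4.90 CPM, that of CSF1R 27.4 against 2.62 CPM, that of IL1B 51.4 against 8.12 CPM and that of CD74 47.1 against 9.77 CPM. Of the rule genes CD83 and CD80 have annotated promoter peaks, at 73.6 against 9.38 CPM and 24.4 against 1.60 CPM. The GPR183 promoter peak had 44.5 CPM in immune nuclei, 29.9 CPM in endothelial nuclei and 2.17 CPM in all comparison nuclei, and GPR183 RNA was likewise found in endothelium, at 52.5 CPM.

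In some genes the promoter peaks differed within the gene. RASGEF1A had 51.8 against 0.629 CPM at one promoter peak (chr6:5431767-5432640) and 60.8 against 35.2 CPM at the other (chr6:5450594-5451508). IKZF1 had 42.8 against 0.969 CPM at one promoter peak and 30.8 against 11.3 CPM at the other, and PTPN6 45.4 against 3.88 CPM and 8.56 against 14.0 CPM. Of 1354 genes with a symbol and at least 2 annotated promoter peaks, 58 had a peak at least 4-fold higher beside a peak within 2-fold. The peak within 2-fold needed no minimum level, so some had few counts, as at PRLHR with 1.28 against 2.28 CPM. The second PTPN6 peak was likewise below the 20 CPM minimum. RNA of 30 of these 58 passed the minimum, and 9 were called higher, where 9.39% of all tested genes were.

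For the high genes TRPM1, ARHGAP15 and C1QB and the rule gene PTPRC the deposited peaks gave little to judge. None had an annotated promoter peak or a peak at the 20 CPM minimum, so accessibility at their promoters was not measured. TRPM1 had 2 annotated peaks, neither a promoter, with 8 counts in immune nuclei, 3.42 CPM against 5.87 CPM in comparison nuclei. PTPRC had 2 annotated peaks with 6.42 against 10.4 CPM. ARHGAP15 had 24 annotated peaks with 62.5 against 139 CPM in all, and C1QB 2 peaks with 8.99 against 14.7 CPM.

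Among tested genes with an annotated promoter peak, genes with higher RNA ratios had higher promoter ratios. The 238 promoter peaks of 178 high genes had a median log2 ratio of 0.76 (quartiles 0.41 and 1.40), the 308 peaks of 224 low genes -0.76, and all promoter peaks 0.30. Under median-of-ratios scaling the high genes had 0.19 and all promoter peaks -0.22. Genes with an RNA log2 ratio of 4 or more had a median of 1.72 at their highest promoter peak, against 0.48 for genes between 0 and 1. Across all 2222 such genes Spearman's rho was 0.50 and Pearson's r 0.57; this is a description across genes that share 1 library and its depth, and genes are not replicates. At distal peaks, 162 of the 343 tested peak and gene pairs of high genes were higher (47.2%), against 16.6% of the pairs of all genes. NRP2, a receptor for semaphorins and VEGF, had the most higher peaks, 7 of 10 tested, and INPP5D had 5 of 5.

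**Figure D4:**
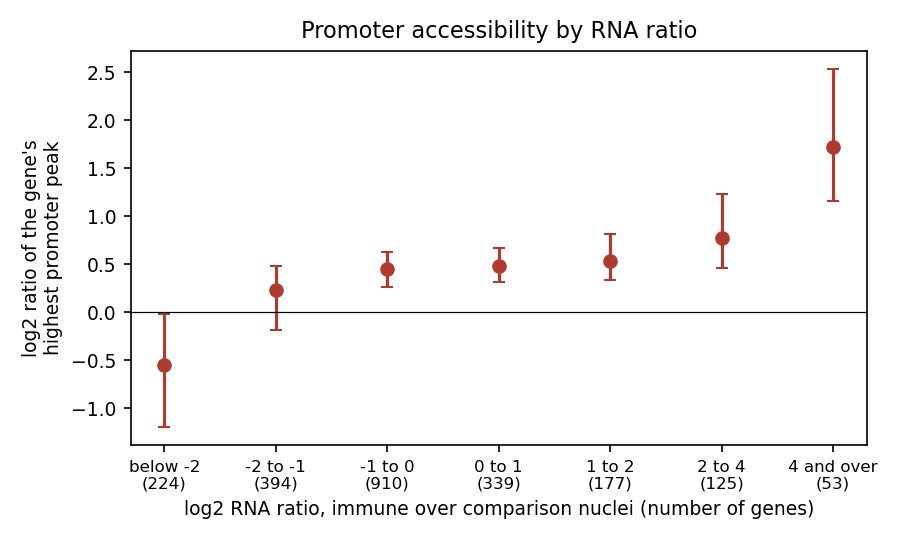
Median log2 accessibility ratio, immune over comparison nuclei, of each gene's highest promoter peak (vertical axis, bars from the lower to the upper quartile) by the gene's log2 RNA ratio (horizontal axis, number of genes in brackets). The median runs from -0.55 in genes with RNA ratios below -2 to 1.72 in the 53 genes at 4 and over.

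The immune nuclei were not uniform. Clustering them on RNA gave 5 groups, numbered here, whose leading genes define them and are no test. Group 2 (85 nuclei) was led by F13A1, a coagulation factor subunit of macrophages, at 750 CPM against 109 CPM in the other immune nuclei. It also had the most CSF1R (411 CPM), TIMD4 (103 CPM) and STAB1 (1786 CPM), and its macrophage list summed to 2438 CPM. Group 3 (123 nuclei) was led by RASGEF1A, at 3855 against 794 CPM, and had the most IL1B (797 CPM), NFKBIZ (1894 CPM), IL1R2 (864 CPM), TFEC (272 CPM) and IL18 (165 CPM). Its nuclei were the shallowest, with a median of 881 genes and 2244 peak counts, and had the most mitochondrial UMIs, 58.1%; the part of these in its gene levels was not tested. Group 4 (208 nuclei) was led by INHBA, PTPN22, CCL17, BLB1 and BLB2, with CD74 at 849 against 328 CPM in the others. Its cell cycle list summed to 638 CPM, against 220 CPM in group 2 and 302 CPM in group 3. TRPM1 was found in every group, from 340 CPM in group 1 to 1442 CPM in group 2.

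**Figure D5:**
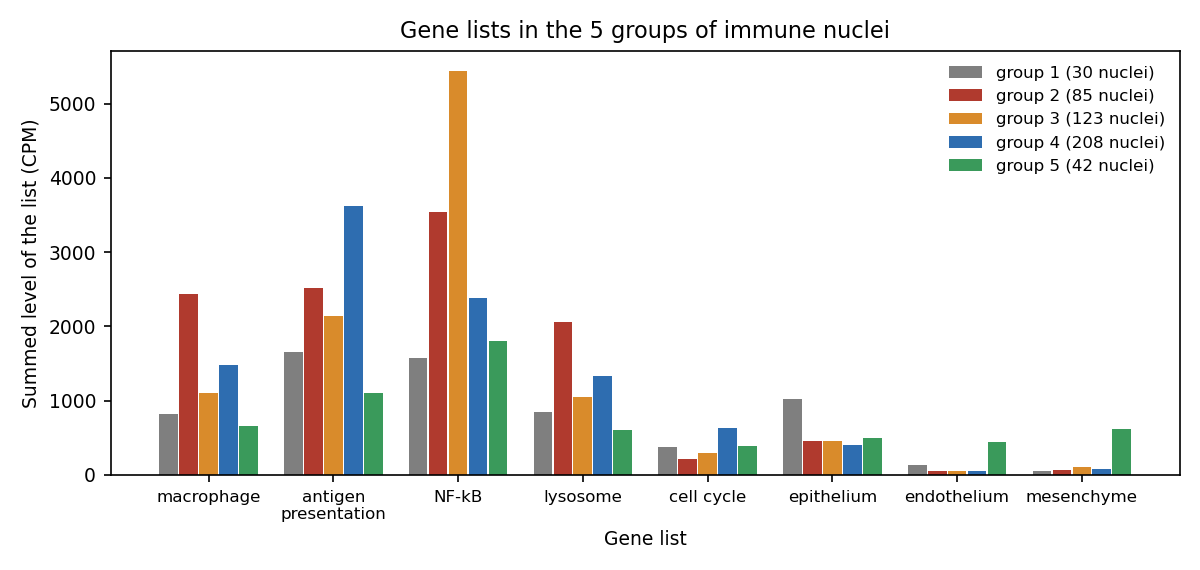
Summed RNA level (vertical axis, CPM) of gene lists (horizontal axis) in the 5 groups of immune nuclei, 1 bar per group. Group 2 is highest for the macrophage list (2438 CPM), group 3 for NF-kB (5439 CPM), group 4 for antigen presentation (3623 CPM), group 1 for epithelium (1017 CPM) and group 5 for endothelium and mesenchyme (438 and 621 CPM).

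Groups 1 and 5 carried genes of other cell types. Group 1 (30 nuclei) was led by the epithelial genes MMEL1, BMPER, PRDM16, AREG and TOX, and 17 of its nuclei were marked as doublets. Group 5 (42 nuclei) was led by PREX2, VWF, CHRM3, PRDM6 and CACNA2D1, with VWF, an endothelial clotting factor, at 460 against 2.29 CPM. It had 24 marked doublets and a median of 9648 UMIs, and 10 of its nuclei had at least 4 endothelial and 25 at least 4 mesenchymal marker UMIs. In these groups 28 of 30 and 42 of 42 nuclei had a UMI of SPI1, CSF1R or STAB1, as did 480 of all 488 immune nuclei. STAB1 alone had a UMI in 51.1% of endothelial nuclei before thinning. A doublet that holds an immune nucleus would carry such UMIs too, so these counts cannot tell mixed nuclei from single ones. Without both groups 416 immune nuclei remained, a choice made after values had been seen. The endothelial list then summed to 57.9 CPM, against 140 CPM with them, and the mesenchymal list to 83.2 CPM, against 186 CPM. Of the 244 high genes 243 were called again, and FLI1 dropped out as its level came to 49.6 CPM, below the minimum. The genes called lower then numbered 485.

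Peak counts did not enter the clustering. For the 10 genes that lead each group in RNA, the log2 ratio of their summed peaks to the other immune nuclei had an interval above 0 for 6 genes in group 1, 4 in group 2, 3 in group 3, 2 in group 4 and 8 in group 5, and an interval below 0 for 0 genes. The share of all genes with an interval above 0 is not given here, so these counts have no background to be read against. The medians were 0.92, 0.20, 0.27, 0.28 and 1.68 for groups 1 to 5. Most leading genes of groups 2, 3 and 4 had intervals that included 0. Some were wide, as for INHBA in group 4 (-1.23 to 1.80), so they do not show ratios near 0. In group 2 the peak ratios ran from -0.47 at LY86 to 1.13 at F13A1. F13A1 peaks had 189 CPM in group 2 and 85.5 CPM in the other immune nuclei, a log2 ratio of 1.13 (0.71 to 1.56) beside 2.77 for RNA. In group 3 they ran from -0.28 at IL18 to 0.51 at RASGEF1A, whose peaks had 354 CPM in group 3 and 248 CPM in the others, an interval of 0.23 to 0.79 beside 2.28 for RNA. In group 4 they ran from -0.13 at CG-1B to 0.65 at BLB1, whose interval of -0.09 to 1.45 included 0, and CD74 peaks had 183 CPM in group 4 and 124 CPM in the others, 0.56 (0.25 to 0.88) beside 1.37 for RNA. In group 1 BMPER peaks had 187 against 31.3 CPM, 2.54 (1.96 to 3.18), while those of MMEL1, which leads the group in RNA, had 30.3 against 32.3 CPM, -0.09 (-1.58 to 1.11). In group 5 PREX2 peaks had 66.2 against 6.48 CPM, 3.17 (2.36 to 4.45), and VWF peaks 10.3 against 3.78 CPM, 1.25 (-0.54 to 3.33). Groups 1 and 5 came back under both other clustering settings, with an overlap of at least 0.875 of the joint nuclei. Group 2 came back at resolution 1.0 (0.977) but less closely with 10 components (0.602, 77 nuclei shared by groups of 85 and 120), and groups 3 and 4 split differently (at best 0.768 and 0.455).

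At E20 there were values for PTPRC, CD83, IFI30 and CD80 but none for IL1R2, so the rule there appears to rest on fewer genes. So applied, it found 304 of 6021 cells in the E20 epithelial library and 6 of 2787 cells in the E20 library depleted of immune cells. In the 304 cells TRPM1 had 5.25 CPM, TFEC 8 UMIs, CD74 9261 CPM and C1QB 810 CPM. Stage, assay and sort differ together between these libraries and cannot be told apart.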

How the data were processed

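For E13, RNA counts (UMIs per gene) and peak counts per nucleus were deposited as raw whole numbers in 1 matrix, made with cellranger-arc 2.0.0 per the file headers; the E20 counts deposited were made with cellranger 4.0.0 per the file headers. The genome build galGal6 and the tools Cell Ranger, Seurat and Signac are named in the submitters' processing notes; whether introns or strand were used in counting is not given in the sources used here. The peak type and the distance in bases to the nearest start were used as the authors deposited them.

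UMIs and peak counts were summed over the nuclei of each class and scaled to CPM from the deposited counts; ratios are log2 of CPM + 1 (pseudocount 1 CPM). Genes needed 50 CPM and peaks 20 CPM in the higher class, and a 4-fold difference was called. Among comparison nuclei, epithelial nuclei had at least 4 EPCAM and CDH1 UMIs; endothelial and mesenchymal nuclei had at most 2 of these and at least 4 UMIs of KDR, CDH5, PECAM1, TIE1 and EGFL7, or of COL1A1, COL1A2, COL3A1, PDGFRA and PDGFRB, and 23 with both were left out. The immune nuclei were clustered with scanpy 1.11.5 (2000 variable genes, 20 components, 15 neighbours, Leiden resolution 0.5). Doublets were marked with scrublet at 0.8% per 1000 nuclei and kept. Sums and intervals were computed with numpy 2.4.6, pandas 2.3.3 and scipy 1.17.1, and the ratio calls were tested on simulated data. With 1 library there is no replicate and no p-value.

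Named genes are the 20 highest ratios at 100 CPM or more in immune nuclei, the 10 lowest at 100 CPM or more in comparison nuclei, the rule genes, members of 27 gene lists, and the 5 leading genes of each group; peaks are the 10 highest and those annotated to named genes. Genes whose symbol is used more than once were not named. The members and lists were chosen with earlier results of these data known. A few shared and sequence-similar genes outside this rule were named after their values had been seen. A gene of the lists is not reported here.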

Additional observations from a re-analysis of the deposited data

How the results depend on the processing

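No paired analysis was possible because each group has 1 sample. Over 14 alternatives no called gene of the lists, of the 20 highest or of the 10 lowest and none of the 10 highest peaks changed sign, but small medians and the balance of calls did. The median over all tested peaks (0.41) was -0.30 under median of ratios and -0.51 with no minimum, and 6 list medians of at most 0.66 in size changed sign under at least 1 alternative. Higher calls outnumbered lower ones under 5 alternatives for genes and 4 for peaks, against neither in the values reported. Of the recomputed counts and medians 47 stayed close to their value and 23 moved by more than 1.5 times, or past their spread. High genes numbered 431 with totals that leave out mitochondrial, ribosomal and haemoglobin genes, 493 with a minimum of 10 CPM and 612 with none. Low genes numbered 157 under median-of-ratios scaling, 641 and 828 at those minimums, and 485 without the groups led by genes of other cell types. High peaks numbered 1114 with a pseudocount of 5 CPM. Low peaks numbered 677 against comparison nuclei with at most 2 EPCAM and CDH1 UMIs, 5215 under median of ratios, 674 with a pseudocount of 5 CPM, 5343 with a minimum of 10 CPM and 11231 with none. High genes were 46.4% of called genes, 54.8% with reduced totals and 65.2% under median of ratios, and high peaks 48.4% and 20.5% of called peaks under CPM and median of ratios. Median of ratios shifted the median of all genes by 0.43 and of all peaks by -0.71. Over the alternatives in which they were recomputed, log2 ratios of the 20 named high genes stayed at 4.20 or more. Those of the 10 named peaks stayed at 3.51 or more. The promoter median at high genes (0.76) was 0.79 in nuclei with at least 1000 genes and 0.69 at no more than 40% mitochondrial UMIs. Against comparison nuclei with at most 2 EPCAM and CDH1 UMIs it was 0.69. It was 0.74 with reduced totals, 0.66 with a pseudocount of 5, and 0.80 and 0.82 at lower minimums. Without the groups that stood apart it was 0.82, and under median of ratios 0.19, where all promoters had -0.22. Clustering at resolution 1.0 gave 9 groups. The causes of these changes were not tested. Depth limits what can be said of genes below 50 CPM.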

Other observations

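The following genes were picked from the 244 called higher after their values had been seen, with no list and no count of related genes that were not called, so they stand as single genes. ABCA1, which exports cholesterol to lipoproteins, had 597.5 CPM in immune nuclei and 49.0 CPM in comparison nuclei, and NPC1 and LIPA, which release cholesterol in the lysosome, had 94.8 against 7.15 CPM and 135 against 9.76 CPM. NR1H3, the nuclear receptor LXR alpha that senses oxysterols, had 101 against 22.5 CPM, and PPARG, a lipid-sensing nuclear receptor, 224.5 against 14.2 CPM with 55.9 CPM in mesenchymal nuclei. FTH1, the ferritin heavy chain, had 1532 against 216 CPM, HMOX1, which breaks down haem, had 175 against 6.72 CPM, and SLC40A1, the iron exporter ferroportin, 80.8 against 14.6 CPM. Haemoglobin genes, which the erythroid list sums, stood at 291 CPM in immune nuclei and 328 CPM in comparison nuclei.

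LTA4H, which makes leukotriene B4, had 321 against 61.2 CPM, TBXAS1, the thromboxane synthase, 109.5 against 17.5 CPM, and PTGS2, a prostaglandin synthase, 52.5 against 3.41 CPM. PTGER4, a prostaglandin E2 receptor, had 162 against 5.46 CPM and PTAFR, the receptor for platelet-activating factor, 70.2 against 1.10 CPM. MITF, the relative of TFEC, had 534 against 113 CPM with 151 CPM in epithelial nuclei.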
